A study of Mus musculus with 6 samples.

Results

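The 10 cathepsins described here, proteases of the lysosome, were followed through mouse knee cartilage, from the embryo to the adult, by RNA sequencing of sorted chondrocytes. The genes, Ctsa, Ctsb, Ctsc, Ctsd, Ctsh, Ctsk, Ctsl, Ctso, Ctss and Ctsz, were chosen by name, with earlier results of these data known. All 10 were found by gene symbol among the 22032 genes of the deposited table. There were 6 samples in all. The 3 embryonic samples were labelled embryonic cartilage of the knee, from E16.5 embryos, a stage that the labels write as 16.5 wks, and the 3 adult samples were labelled adult cartilage of the knee at 2 months. No treatment or engineered allele was given for either stage. Cells of both stages were sorted as lineage-negative ALP-BMPR1B+ cells, and for the adult chondrocytes, which came from male B6 mice, the gate is spelled out as CD31-CD45-Ter119-ALP-BMPR1B+. It is meant to remove endothelial cells, leukocytes, erythroid cells and cells with surface alkaline phosphatase. BMPR1B is a BMP receptor of articular chondrocytes. The strain and sex of the embryos and the number of animals behind a sample were not given in the sources used here, so sex and strain cannot be told apart from stage, and p-values measure only the spread between the samples.

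Cathepsins are proteases that work mainly in the lysosome, the acidic compartment where a cell breaks down proteins, lipids and glycans that it has taken up or that come from its own organelles. Most of them are cysteine proteases, while cathepsin D is an aspartic protease and cathepsin A a serine carboxypeptidase. They are made as inactive proenzymes, are tagged in the Golgi with mannose 6-phosphate, are carried to the lysosome by receptors for that tag, and become active as the proton pump acidifies the compartment. Cystatins and stefins are tight-binding inhibitors of the cysteine cathepsins, outside and inside the cell respectively. In the skeleton cathepsin K is best known as the collagen-degrading protease of osteoclasts, and several cathepsins can cut collagen II and aggrecan, the main components of cartilage matrix.

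The members did not lie together in the genome. By the GENCODE annotation of GRCm38, Ctsk (chr3:95499256-95509362) and Ctss (chr3:95526786-95556403) were neighbours on the plus strand, 17423 bases apart, and Ctso was on the same chromosome (chr3:81932601-81956725). Ctsc (chr7:88278085-88310888) and Ctsd (chr7:142375911-142388038, minus strand) shared chromosome 7, and Ctsa (chr2:164832873-164841032) and Ctsz (chr2:174427493-174439039, minus strand) shared chromosome 2. Ctsb was at chr14:63122462-63145923, Ctsh at chr9:90054152-90076089 and Ctsl at chr13:64359337-64370890 on the minus strand. No stretch as long as a read, 50 bases, was shared between any pair of members, so reads of one cathepsin could not be taken for those of another by exact match.

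Lysosomal genes share a promoter element, the CLEAR element, whose core TCACGTGA is bound by the transcription factors TFEB, TFE3 and MITF. RefSeq windows of GRCm38.p6, from 250 bases before to 50 bases after a start site, were given for 8 members in 9 windows, of which Ctsa had 2. The motifs searched, on both strands, were TCACGTGA, the E-box CACGTG that lies inside it and the TATA box TATAAA. TCACGTGA was in the windows of Ctsd and, at 2 places, Ctsa, that is in 2 of the 9 windows against 0.974% of all 32851 windows of mouse genes. CACGTG was in those same windows and in that of Ctsl, 3 of 9, against 7.15% of all windows. The following 30 bases, 5′ to 3′ on the gene's strand with the motif in capitals, are shown because they set a cathepsin that rose (Ctsd) beside 2 that did not pass the test (Ctsa and Ctsl).
Ctsd, chr7:142387908-142387937, minus strand: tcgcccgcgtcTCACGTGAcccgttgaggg
Ctsa, chr2:164833749-164833778, plus strand: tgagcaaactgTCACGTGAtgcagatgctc
Ctsa, chr2:164833766-164833795, plus strand: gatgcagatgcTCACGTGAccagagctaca
Ctsl, chr13:64370739-64370768, minus strand: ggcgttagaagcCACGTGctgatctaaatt
With the start site as position 1 and the base before it as position -1, the motif began at -99 in Ctsd, at -13 and 5 in Ctsa and at -236 in Ctsl. By GENCODE all 4 lay in an exon of the named gene, whose models begin further upstream than the RefSeq start used here.

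The windows of Ctsk and Ctsc, which moved most in opposite directions among the members with a window, held none of the 3 motifs. The 100 bases before the RefSeq start site are shown for both, in lower case because they held no motif.
Ctsk, chr3:95499110-95499209, plus strand: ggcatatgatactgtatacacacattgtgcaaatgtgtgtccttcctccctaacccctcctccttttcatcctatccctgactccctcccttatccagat
Ctsc, chr7:88277985-88278084, plus strand: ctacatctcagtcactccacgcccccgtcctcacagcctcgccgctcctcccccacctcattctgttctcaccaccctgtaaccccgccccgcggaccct
They differed in base composition, with a GC content over the whole window of 43.7% for Ctsk and 60.3% for Ctsc. The windows of Ctsz and Ctso held none of the 3 motifs either, and that of Ctss held only a TATAAA at -233, a motif found in 13.6% of all windows. A match of letters in a window is a description and shows no binding.

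The samples were compared as TPM, a gene's share of all transcripts corrected for its length, so that levels of different genes can be set side by side. The labelled cartilage was checked against 10 chondrocyte markers. Col2a1, the chain of collagen II, lay at 14154 to 15251 TPM in the embryonic and 3166 to 7084 TPM in the adult samples, and all 10 were above 0 in every sample, with 5 lower and 3 higher in the adult. Matn3, a matrilin of growing cartilage, was down to 1.11 to 3.65 TPM in the adult samples, against 181 to 234 TPM in the embryonic ones. The samples of a stage correlated across genes at a Pearson r of 0.907 to 0.955, and those of different stages at 0.739 to 0.765. The summed levels of markers of other cell types differed with stage. That of 8 tendon and fibroblast markers lay at 10131 to 11775 TPM in the embryonic and 602 to 1335 TPM in the adult samples. Col1a1 and Col3a1 made up most of it. Of these 8 markers 5 fell (Scx, Tnmd, Dpt, Col1a1 and Col3a1). Mkx, Pdgfra and Thy1 overlapped between the stages and did not pass the test. The sum of 8 osteoblast markers lay at 65.4 to 92.5 and 303 to 505 TPM, of which 4 rose (Ibsp, Bglap, Bglap2 and Alpl) and 1 fell (Dmp1). The sum of 8 neutrophil markers lay at 0 in every embryonic sample and at 182, 5.55 and 74.6 TPM in adult replicates 1, 2 and 3. Results are therefore also given with adult replicate 2, which held the lowest neutrophil sum, as the only adult sample. S100a8 and S100a9 were at 0 there and made up most of the sum in adult replicate 3. Ngp, Camp and Elane went the other way. They were at 1.32, 3.64 and 0.592 TPM in adult replicate 2 and at 0.625, 0 and 0 TPM in adult replicate 3. In such bulk samples fewer cells of a type and less RNA per cell cannot be told apart.

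Between the stages 3 cathepsins rose, Ctsh, Ctsk and Ctsd, and 1 fell, Ctsc, while 5 did not pass the test (Ctsa, Ctsb, Ctsl, Ctso and Ctsz) and Ctss was too low to be tested. The test was limma on log2(TPM + 1) over the 13125 genes that averaged 1 TPM or more, at an adjusted p under 0.05, and it called 23.9% of all tested genes higher and 21.4% lower in the adult. The 3 of 9 and 1 of 9 tested cathepsins are to be read against this background. All adult values lay above all embryonic values for 5 members, Ctsa, Ctsb, Ctsd, Ctsh and Ctsk, against 30.7% of all tested genes, and below them for 1, Ctsc, against 25.9%. The median log2 fold change was 0.27 over the 9 tested members and 0.16 over all tested genes.

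**Figure D1:**
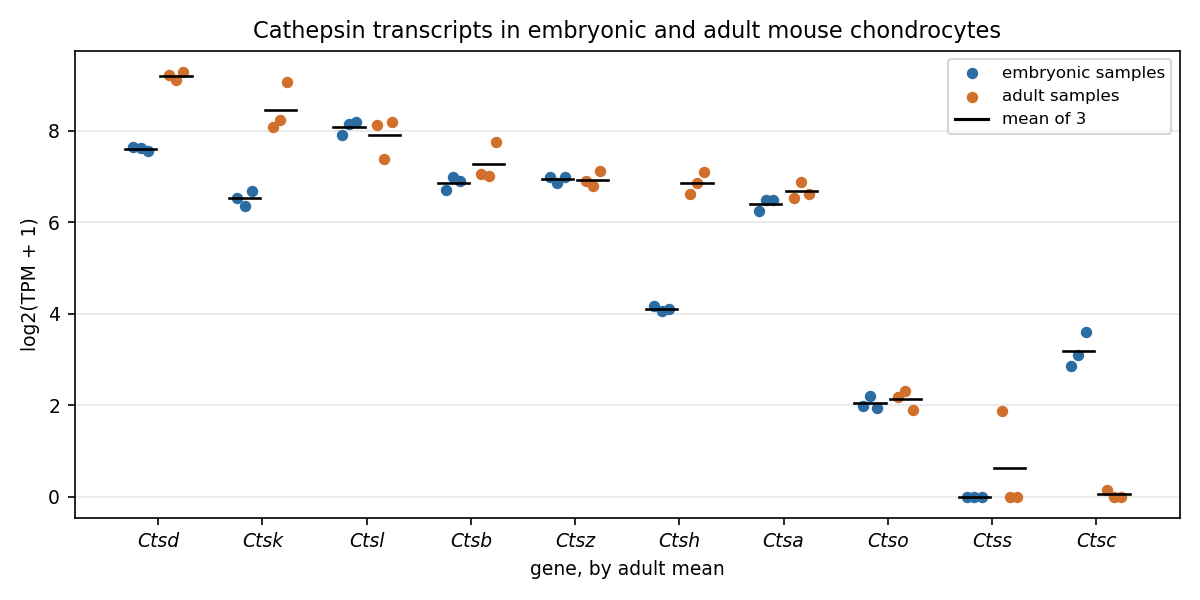
Level of each cathepsin, as log2(TPM + 1) on the vertical axis, in the 3 embryonic (blue) and 3 adult (orange) samples, with the mean of each 3 as a black line and the genes ordered by their adult mean. The adult points stand clear above the embryonic ones for Ctsd, Ctsk and Ctsh and clear below them for Ctsc, while those of Ctsl, Ctsz and Ctso overlap.

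Cathepsin D, encoded by Ctsd, is the main aspartic protease of the lysosome and cuts proteins inside the chain. Its level was 198, 196 and 187 TPM in embryonic replicates 1, 2 and 3, and 591, 551 and 622 TPM in adult replicates 1, 2 and 3. All adult samples lay far above all embryonic ones, and within each stage the samples lay close together. The means were 194 ± 6.11 and 588 ± 35.7 TPM (SD, n = 3), and the log2 fold change was 1.60 (SE 0.111, 95% interval 1.34 to 1.85, adjusted p = 1.39e-05). With adult replicate 2 as the only adult sample it was 1.50 (adjusted p = 0.00115). Of all tested genes 98.5% had a lower adult mean than Ctsd, and 92.9% a lower embryonic mean. In GENCODE 34.4% of the exonic bases of Ctsd were shared with Gm49369, a gene model on the same strand that was not analysed here, and its part in the value was not tested.

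Cathepsin H, encoded by Ctsh, removes single amino acids from the start of a protein. It had the largest rise among the members. The embryonic samples held 17.1, 15.6 and 16.1 TPM, and the adult samples 97.2, 115 and 135 TPM. The groups stood far apart, and no embryonic sample came near the lowest adult one. The log2 fold change was 2.75 (SE 0.183, 95% interval 2.33 to 3.16, adjusted p = 1.14e-05), a 6.71-fold higher level, and it stayed at 2.75 with adult replicate 2 alone. In the embryo Ctsh was a gene of middling level, with 46.2% of tested genes below it, and in the adult 87.7% lay below it. Its exons were not shared with another gene.

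Cathepsin K, encoded by Ctsk, can cut the triple helix of collagens I and II. Its level was 91.7, 80.1 and 102 TPM in the embryonic samples and 270.1, 302 and 530.2 TPM in the adult samples. All adult samples were higher, but adult replicate 3 held far more than the other two. The log2 fold change was 1.94 (SE 0.241, 95% interval 1.39 to 2.48, adjusted p = 0.000317), a 3.83-fold higher level. Without adult replicate 3 it was 1.64 (adjusted p = 0.000141). Ctsk thus passed the test without its highest sample, and the size of the rise depended on it. The gene has a single transcript in GENCODE and shared no stretch of 50 bases with another gene.

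Because Ctsk is best known from osteoclasts, the bone-resorbing cells, the levels of 10 osteoclast markers are given beside it. Calcr (calcitonin receptor), Oscar, Dcstamp (needed for fusion) and Siglec15 were at 0 in all 3 adult samples. In the embryonic samples none of these was above 0.442 TPM. Tnfrsf11a (the receptor RANK) was at 0.204, 0.737 and 0.566 TPM in the embryonic and 0.103, 0.332 and 1.93 TPM in the adult samples. Acp5, the tartrate-resistant acid phosphatase of osteoclasts, rose from 0.740, 2.49 and 1.43 to 14.9, 18.7 and 18.9 TPM (log2 fold change 2.91, SE 0.397, adjusted p = 0.000520). Atp6v0d2, an osteoclast subunit of the proton pump, was listed at 0 in every embryonic sample and at 0.799, 1.93 and 9.66 TPM in the adult ones, so it was highest in the replicate in which Ctsk was highest. Itgb3, the vitronectin receptor chain, showed the same single high adult value, at 4.26, 2.96 and 19.6 TPM in the adult against 12.9, 13.5 and 12.5 TPM in the embryonic samples. Mmp9, a gelatinase, and Ocstamp went the other way among the adult samples, with 6.63, 3.44 and 1.41 TPM of Mmp9 and 1.26, 0.349 and 0 TPM of Ocstamp in replicates 1, 2 and 3.

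The summed level of the 10 markers was 18.1 to 19.9 TPM in the embryonic samples and 27.9, 27.8 and 51.5 TPM in adult replicates 1, 2 and 3, far below the level of Ctsk in each of these samples. Itgb3 was the largest part of the sum in the embryonic samples, and Acp5 in adult replicates 1 and 2, so the sum understates the rise of Acp5. Bglap, the bone protein osteocalcin, followed the same order among adult samples, at 26.8, 15.8 and 83.9 TPM, with every embryonic sample at 0, while Ibsp, the bone sialoprotein and the most abundant of the 8 osteoblast markers, was at 316, 235 and 308 TPM and Alpl at 38.6, 32.7 and 36.0 TPM. Among the adult samples, replicate 3 thus held the most Ctsk and, of the osteoclast markers, the most Atp6v0d2, Itgb3 and Tnfrsf11a. Acp5 was highest there by little, and Mmp9 and Ocstamp were lowest there. Of the osteoblast markers, Bglap, Bglap2, Dmp1, Runx2 and Phex were highest in adult replicate 3, and Ibsp, Alpl and Sp7 in adult replicate 1. What part osteoclasts or bone cells had in the rise of Ctsk was not tested. Leaving out adult replicate 3 is no such test, since Acp5 and Ibsp were above all embryonic values in adult replicates 1 and 2 too.

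**Figure D2:**
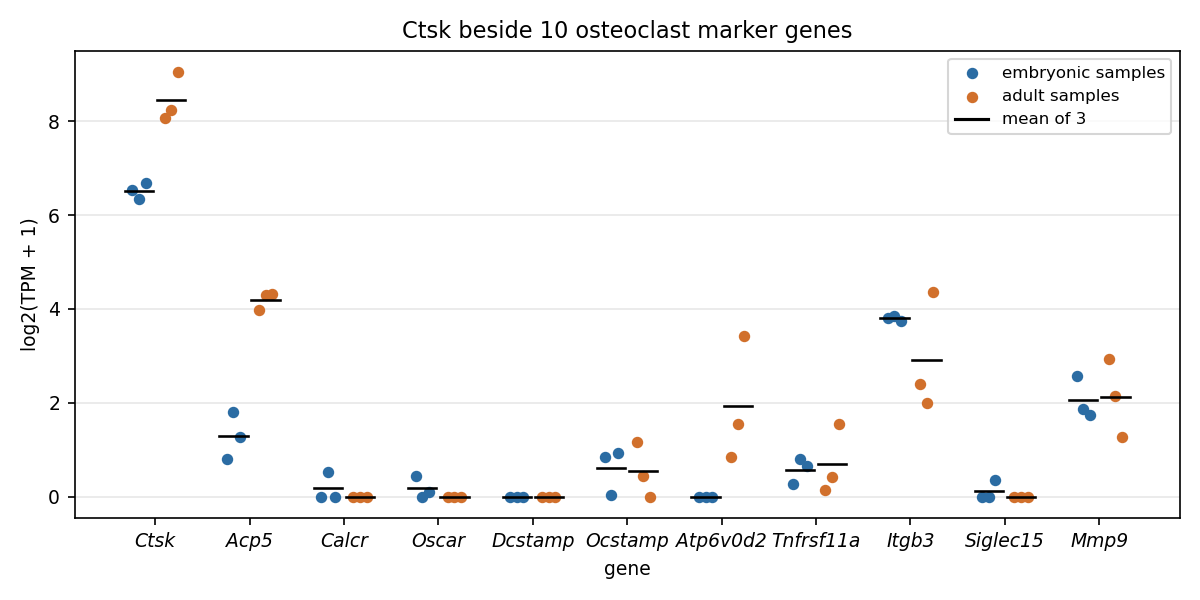
Ctsk and 10 osteoclast markers as log2(TPM + 1) in the 3 embryonic (blue) and 3 adult (orange) samples, with black lines for the mean of each 3. Calcr, Oscar, Dcstamp and Siglec15 sit at 0 in the adult samples, and Acp5 is higher in all 3. Atp6v0d2, Itgb3 and Tnfrsf11a are highest in the adult sample with the highest Ctsk, and Mmp9 and Ocstamp are lowest there among the adult samples.

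Cathepsin C, encoded by Ctsc, is a dipeptidyl peptidase that activates the serine proteases of granules in neutrophils, mast cells and cytotoxic lymphocytes. It was the 1 member that fell. The embryonic samples held 6.19, 7.53 and 11.1 TPM, while the adult samples held 0.113 TPM in replicate 1 and were listed at 0 in replicates 2 and 3. The groups did not overlap. The log2 fold change was -3.13 (SE 0.438, 95% interval -4.12 to -2.13, adjusted p = 0.000602) and became -5.98 with a pseudocount of 0.1 in place of 1, so its call held with either pseudocount and its size depended on it. Adult replicate 1, the sample with the highest sum of neutrophil markers, was also the only adult sample with any Ctsc, at a value near 0. The embryonic samples held Ctsc while that sum was at 0 in each of them, and the part of neutrophils in the level of Ctsc was not tested.

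Cathepsin S, encoded by Ctss, degrades the invariant chain in antigen-presenting cells. Adult replicate 1 held 2.67 TPM of it, and the other 5 samples were listed at 0. Its mean over the 6 samples was under 1 TPM, so it was not tested, and no fold is given against a group at 0. Adult replicate 1 also held the most of Ptprc, the leukocyte antigen CD45 (2.29, 0 and 1.03 TPM in adult replicates 1, 2 and 3), of Laptm5 (5.92, 1.21 and 0 TPM) and of Lyz2, lysozyme of myeloid cells (30.7, 0.706 and 8.14 TPM). Tyrobp was at 0.322 TPM in that sample and at 0 in the others, and the macrophage gene C1qb was at 5.58 TPM there, at 0.672 TPM in embryonic replicate 1 and at 0 elsewhere, with C1qa at 0 in all 6. Not all leukocyte markers followed this order. Cd74, the invariant chain itself, was at 3.11, 0.841 and 6.58 TPM in adult replicates 1, 2 and 3, Fcer1g at 1.06, 0 and 7.62 TPM, and Aif1 was highest in embryonic replicate 3, at 7.57 TPM. Ctss, next to Ctsk on the chromosome, thus had no level in any sample near that of its neighbour.

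The remaining 5 cathepsins did not pass the test. Ctsl, encoding the endopeptidase cathepsin L, held 238, 282 and 290.5 TPM in the embryonic and 277, 166 and 289.9 TPM in the adult samples. The groups overlapped, and adult replicate 2 was the lowest sample. The log2 fold change was -0.18 (95% interval -0.66 to 0.30, adjusted p = 0.508), 0.07 without adult replicate 2, and -0.69 (adjusted p = 0.0265) with that replicate as the only adult sample. The direction of Ctsl therefore depends on 1 sample. Of the exonic bases of Ctsl 26.9% were shared with Gm47123 on the opposite strand and 6.09% with Gm49230 on the same strand, and neither gene model was analysed here.

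Ctsb, encoding cathepsin B, which cuts both inside proteins and dipeptides from their ends, held 104, 125 and 119 TPM in the embryonic and 131, 127 and 214 TPM in the adult samples. All adult values were higher, the lowest by little, and replicate 3 stood above the others. The log2 fold change was 0.40 (95% interval -0.07 to 0.87, adjusted p = 0.145), and 0.16 without that sample. Ctsb and Ctsk thus had their highest value in the same sample. The end of Ctsb overlaps Fdft1, an enzyme of sterol synthesis on the opposite strand, over 12.8% of its exonic bases. Fdft1 went the other way (log2 fold change -1.30, adjusted p = 0.0254), and whether reads in the shared bases were assigned by strand is not given in the sources used here.

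Ctsa encodes cathepsin A, which also holds the sialidase NEU1 and the galactosidase GLB1 together in a complex and protects them. It was measured at 74.9, 88.8 and 88.1 TPM in the embryonic and 90.7, 117 and 96.8 TPM in the adult samples. Every adult sample was above every embryonic one, by a small margin, and the log2 fold change was 0.27 (95% interval -0.08 to 0.62, adjusted p = 0.188). Of its partners, Neu1 rose from 7.37, 5.42 and 7.73 to 31.4, 34.2 and 26.8 TPM (log2 fold change 2.03, SE 0.271, adjusted p = 0.000462), and Glb1, singled out after its values were seen, was at 17.3, 20.4 and 14.9 and then 15.2, 14.4 and 24.9 TPM (log2 fold change 0.02, adjusted p = 0.969). Exons of Ctsa overlap those of Pltp, over 10.5% of its exonic bases, and of Neurl2, both on the opposite strand.

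Ctsz and Ctso showed the smallest differences. Ctsz, encoding the carboxypeptidase cathepsin Z, held 125, 116 and 126 TPM in the embryonic and 118, 109 and 137 TPM in the adult samples, with overlapping ranges. Its log2 fold change was -0.02, with a 95% interval of -0.33 to 0.29 (adjusted p = 0.925). For Ctsz, as for Ctsa, Ctsb, Ctsl and Ctso, the interval excludes a rise as large as that of Ctsd, Ctsh or Ctsk. Ctso, a little-studied cysteine cathepsin, was low throughout, at 2.97, 3.60 and 2.82 TPM and 3.55, 3.96 and 2.69 TPM. Its log2 fold change of 0.09 had a wide 95% interval of -0.81 to 0.98 (adjusted p = 0.872), and its direction turned under 2 of the other scalings of the samples.

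**Figure D3:**
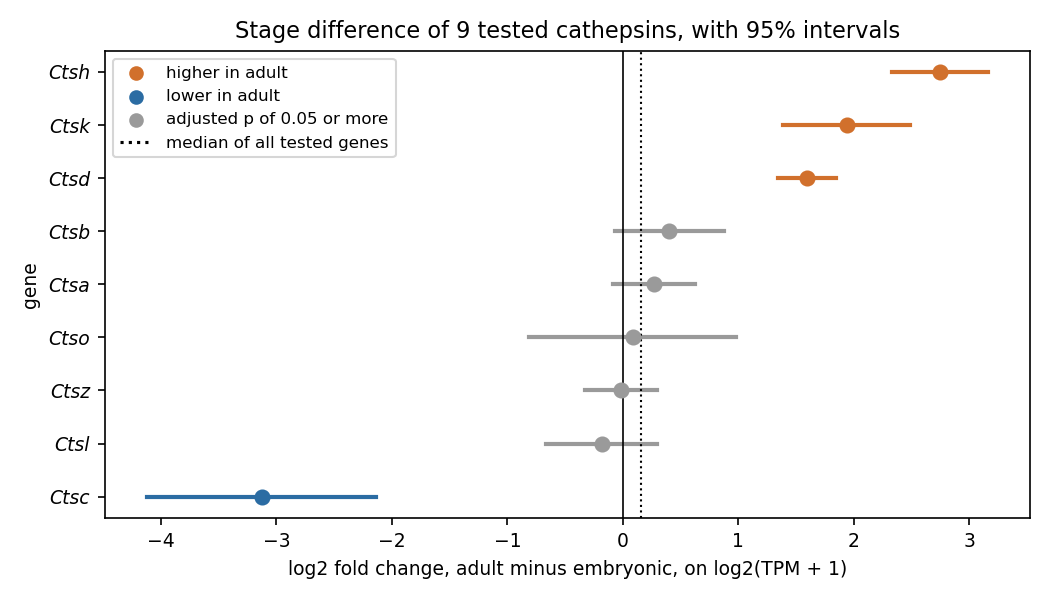
Log2 fold change of the 9 tested cathepsins, adult minus embryonic, on log2(TPM + 1), with bars for the 95% interval of the limma fit and a dotted line at the median of all tested genes, 0.16. The intervals of Ctsh, Ctsk and Ctsd (orange) lie above 0 and that of Ctsc (blue) below it, and the other 5 (grey) include 0.

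The order of the cathepsins by level changed between the stages. In the embryonic samples Ctsl was highest and Ctsd next, each apart from its neighbour in every sample. Ctsz and Ctsb followed with overlapping ranges, then Ctsk and Ctsa, again overlapping, and then Ctsh, Ctsc, Ctso and Ctss, each apart from the next. In the adult samples Ctsd was highest and apart from Ctsk. From Ctsk through Ctsl, Ctsb, Ctsz and Ctsh to Ctsa each range overlapped the next. Compared within each sample, Ctsl still lay above Ctsb, and Ctsb above Ctsz and Ctsh, in every adult sample. Ctsk and Ctsl, Ctsz and Ctsh, and Ctsh and Ctsa changed places between adult samples. Farther apart, the whole adult range of Ctsk lay above those of Ctsb, Ctsz, Ctsh and Ctsa. The range of Ctsl lay above those of Ctsz, Ctsh and Ctsa, and that of Ctsb above that of Ctsa. Ctso lay far below them, and Ctss and Ctsc were at or near 0.

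The summed level of the 10 cathepsins was 858, 914 and 942 TPM in the embryonic and 1581, 1491 and 2028 TPM in the adult samples, that is 0.0858% to 0.0942% and 0.149% to 0.203% of all TPM. All adult sums were higher. The make-up of this sum differed as well. Ctsl went from a mean of 29.8% ± 1.77 of it to 14.3% ± 3.20 (SD, n = 3), although its own level did not pass the test. Ctsd went from 21.4% ± 1.63 to 34.98% ± 3.75, Ctsk from 10.1% ± 1.15 to 21.2% ± 4.60 and Ctsh from 1.80% ± 0.160 to 6.84% ± 0.789. Ctsz, with a like level at both stages, went from 13.6% ± 0.989 to 7.18% ± 0.364. For each of these 5 genes the embryonic and adult shares did not overlap. Shares add up to the whole, so that one member's rise lowers the others.

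Ratios between members within a sample do not depend on a linear scaling of the samples. The level of Ctsd per level of Ctsl was 0.831, 0.696 and 0.642 in the embryonic and 2.13, 3.32 and 2.14 in the adult samples. That of Ctsk per Ctsb was 0.883, 0.641 and 0.859 against 2.06, 2.37 and 2.47, and that of Ctsh per Ctsb was 0.164, 0.125 and 0.136 against 0.741, 0.903 and 0.631. All 3 ratios were higher in every adult sample. Adult replicate 3, which held the highest levels of both Ctsk and Ctsb, had a ratio of Ctsk to Ctsb near those of the other adult samples.

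**Figure D4:**
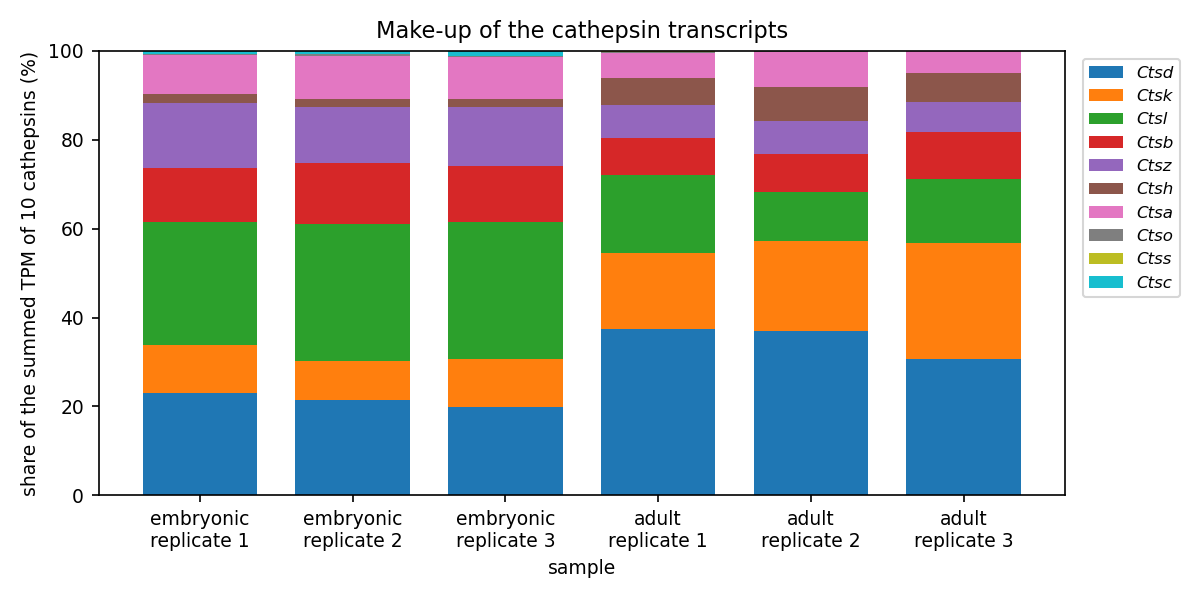
Share of each cathepsin in the summed TPM of the 10, in percent, for each of the 6 samples. Ctsl (green) is the largest block in the embryonic samples, at 27.8% to 30.8%, and Ctsd (dark blue) in the adult ones, at 30.7% to 37.4%, and the blocks of Ctsk (orange) and Ctsh (brown) widen.

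The genes whose pattern over the 6 samples was most like that of Ctsh, by Pearson's r of log2(TPM + 1), were Secisbp2, Pdk4 and Ttc16, each with an r of 0.999. Pdk4, a kinase that inhibits pyruvate dehydrogenase, went from 5.52, 4.17 and 4.06 TPM to 65.0, 84.6 and 112 TPM. For Ctsc they were Lrrn1, Lrrn2 and a gene without a symbol, each at 0.999, with Lrrn1 at 3.61, 4.19 and 6.50 TPM and then at 0 in all adult samples. Such values say little, since the 6 points form 2 groups, and 159 genes had an r above 0.99 with Ctsh and 97 with Ctsc.

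The other 13 cathepsin genes on the list were few in these cells. Of these, 7 were at 0 in all 6 samples, most of them of the placental group of the mouse, and 2 could be tested. Ctsf, encoding the cysteine protease cathepsin F, rose from 15.5, 17.8 and 15.4 TPM to 30.1, 41.1 and 38.2 TPM, with no overlap (log2 fold change 1.11, SE 0.221, adjusted p = 0.00376). Ctsw, known from cytotoxic lymphocytes, was at 0 to 2.95 TPM and 1.08 to 3.49 TPM, with overlap and no call. Ctsg, the granule protease of neutrophils that cathepsin C activates, was at 1.39 TPM in adult replicate 1 and at 0 in the other samples.

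Among the 18 inhibitor genes 7 could be tested. Of these, Cst6, Stfa2, Stfa3 and Stfa2l1 averaged under 1 TPM in the embryonic samples. They passed the filter only through their adult values, so a fall could hardly be called for them. Of the 7 tested, 4 rose, Cst6 and Stfa2 among them, and none fell, against 23.9% and 21.4% of all tested genes. With median-of-ratios scaling 3 rose, and with adult replicate 2 as the only adult sample 2 of the 4 that could then be tested. Cst3, encoding cystatin C, the secreted inhibitor of cysteine cathepsins, held 175, 169 and 171 TPM in the embryo, while the adult samples held 2209.6, 2152 and 2216 TPM. Its samples hardly differed within a stage and did not overlap between stages, and its log2 fold change of 3.67 (SE 0.103) was larger than that of any of the 9 tested cathepsins. Cstb, encoding the intracellular inhibitor stefin B, rose less, from 73.1, 99.4 and 74.6 TPM to 119.9, 107 and 173 TPM (log2 fold change 0.67, SE 0.209, adjusted p = 0.0280). Cst6, a cystatin that also inhibits legumain, was at 0.102, 0.444 and 0 TPM and then at 7.10, 7.58 and 5.17 TPM (log2 fold change 2.69, SE 0.438, adjusted p = 0.00135).

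Stefin A genes of the mouse were low and uneven. Stfa2 was listed at 0 in every embryonic sample and at 13.2, 3.21 and 6.37 TPM in the adult ones and passed the test. Stfa3 was at 2.20, 0 and 0 TPM and at 17.8, 0.473 and 24.2 TPM, and Stfa2l1 was above 0 in adult replicate 1 alone. All 3 were lowest, among the adult samples, in replicate 2 or at 0 there, where the sum of the neutrophil markers was lowest too. Not all of these markers followed that order, since Ngp, Camp and Elane were lowest in adult replicate 3. The part of neutrophils in the levels of the stefin A genes was not tested. These genes are near copies of each other, so their separate levels are uncertain. Ctla2a, an inhibitor like a cathepsin propeptide, was at 2.41, 2.28 and 0 TPM and at 3.88, 3.10 and 24.1 TPM and did not pass the test (adjusted p = 0.0867).

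Set against the 8 cysteine cathepsins, cystatin C changed its place. The summed level of Ctsb, Ctsc, Ctsh, Ctsk, Ctsl, Ctso, Ctss and Ctsz was 586, 629 and 667 TPM in the embryonic and 899.6, 823 and 1309 TPM in the adult samples. Cst3 per this sum was 0.299, 0.269 and 0.257 in the embryonic and 2.46, 2.61 and 1.69 in the adult samples. The transcript of the inhibitor was thus below the sum of its possible targets in all embryonic samples and above it in all adult samples. These are ratios of transcripts and not of proteins or activity.

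The genes that make, carry and acidify the lysosome were described from 7 lists with 122 genes, among them the other cathepsins and the inhibitors. Of the 99 that could be tested 54 (54.5%) were higher and 7 (7.07%) lower in the adult, against 23.9% and 21.4% of all tested genes, with a median log2 fold change of 0.68 against 0.16. Acp5 counts here and among the osteoclast markers above. Cst6, Stfa2, Stfa3, Stfa2l1 and Slc38a9, which passed the filter only through their adult values, count here too. With adult replicate 2 as the only adult sample, 30 of 96 were higher and 6 lower, in a fit that called 13.6% of all genes higher and 17.5% lower. In that fit 9 of the hydrolases, 7 of the membrane proteins, 9 of the proton pump genes and 2 of the sorting genes were higher. The lists were chosen with earlier results of these data known and are given as counts and medians only.

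Of the 40 other lysosomal hydrolases 21 rose and 3 fell, with a median of 0.63. Beside Acp5 and Neu1 the largest rises were those of Dnase2a, the acid DNase that digests DNA of engulfed cells, from 8.98, 10.01 and 10.1 TPM to 51.4, 32.5 and 53.3 TPM (log2 fold change 2.10), and of Galc, the galactosylceramidase, from 2.09, 4.97 and 3.68 TPM to 17.8, 11.7 and 18.9 TPM (1.93). Among those that fell, named after their values were seen, were Arsb (log2 fold change -0.96), a sulfatase of dermatan and chondroitin sulfate, and Ppt1 (-0.52).

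Of the 18 lysosomal membrane proteins 12 rose and 1 fell, with a median of 1.20. The largest rises were those of Ostm1 (log2 fold change 2.17) and Clcn7 (1.88), whose products together form the chloride-proton exchanger of the lysosome, and of Cln3 (1.98). Clcn7 went from 17.8, 16.7 and 17.9 TPM to 58.0, 61.2 and 83.9 TPM. Laptm4b fell, from 41.0, 53.8 and 44.8 TPM to 6.37, 19.2 and 19.1 TPM (-1.71).

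Of 17 genes of the proton pump, the V-ATPase that acidifies the lysosome, 12 rose and none fell, with a median of 0.98. Atp6v1e1, of the part that splits ATP, rose most, from 85.5, 76.4 and 97.3 TPM to 401, 353 and 337 TPM (log2 fold change 2.06, SE 0.140). It was followed by the accessory subunit Atp6ap1 (1.56), Atp6v1c1 (1.50) and Atp6v0b (1.29). The remaining 5 did not pass the test.

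The 12 sorting genes, which bring cathepsins to the lysosome, had 4 higher and 3 lower members and a median of 0.40. These are 33.3% and 25.0% of the list, near the 23.9% and 21.4% of all tested genes. Igf2r, encoding the large receptor for mannose 6-phosphate, which also takes up and removes IGF2, fell from 383, 308 and 336 TPM to 66.0, 78.0 and 55.1 TPM (log2 fold change -2.36, SE 0.161, adjusted p = 1.34e-05). M6pr, the small receptor for the same tag, singled out after its values were seen, was at 98.9, 97.6 and 94.5 TPM and at 118, 88.9 and 101 TPM (0.07, adjusted p = 0.705). The stages did not overlap for Igf2r and overlapped for M6pr, and the difference between the 2 receptors was not tested.

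Sort1, encoding sortilin, which carries cathepsins D and H among other cargo, fell from 22.1, 14.7 and 14.8 TPM to 2.86, 1.21 and 1.67 TPM (log2 fold change -2.66). Lrp1, an endocytic receptor that takes up secreted proteases at the cell surface, rose from 272, 187 and 226 TPM to 896, 892 and 911 TPM (1.99), while Lrpap1, its chaperone, fell (-1.11). Of the genes for the enzymes that make the mannose 6-phosphate tag, Nagpa (1.85) and Gnptab (0.97) rose. Gnptg, a further subunit of the enzyme of Gnptab, singled out after its values were seen, had a log2 fold change of 0.27 and overlapping ranges (adjusted p = 0.519). The adaptor gene Gga1 rose (0.90).

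**Figure D5:**
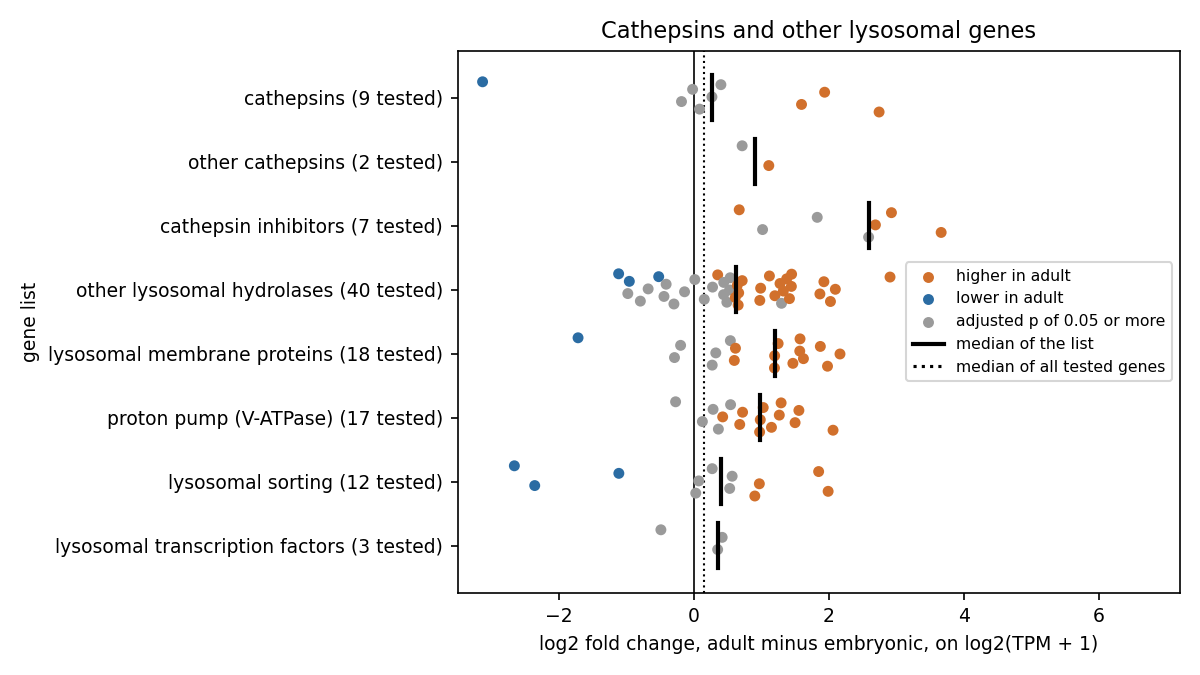
Log2 fold change, adult minus embryonic, of every tested gene of the cathepsins and of 7 other lysosomal lists, coloured by the limma call, with a black line at the median of each list and a dotted line at that of all tested genes. The points of the membrane proteins and the proton pump lie mostly to the right of 0, with medians of 1.20 and 0.98, while those of the cathepsins and the sorting genes lie on both sides, with medians of 0.27 and 0.40.

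The transcription factors that bind the CLEAR core did not pass the test. Tfeb was at 78.8, 47.1 and 67.4 TPM in the embryonic and 50.5, 51.5 and 34.2 TPM in the adult samples, with overlap (log2 fold change -0.49, adjusted p = 0.132). Tfe3 was at 50.2, 65.6 and 56.2 TPM and at 68.2, 82.0 and 69.9 TPM, higher in all adult samples by a small margin (0.35, adjusted p = 0.113). Mitf was at 18.8, 18.7 and 21.4 TPM and at 18.8, 28.1 and 35.5 TPM (0.42, adjusted p = 0.233), and Tfec was at 0 in all 6 samples. Of the members shown above with the core in their window, Ctsd rose and Ctsa did not pass the test. Transcript levels do not show where these factors are in the cell, and their activity was not measured.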

How the data were processed

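RNA from sorted chondrocytes of 6 mouse knee cartilage samples, 3 per stage, was sequenced as single-end reads of 50 bases. The labels name a Kapa mRNA-Seq kit and the methods a Nugen Ovation RNA-Seq System V2 kit with a Kapa LTP kit, which was not resolved. The authors mapped reads to GRCm38 with RefSeq annotations, estimated levels with RSEM (version not given in the sources used here) and deposited log2(TPM + 1) per gene. No counts were analysed here and TPM keeps no depth, so that precision rests on the spread between 3 samples and no count-based interval or limit is given. A value of 0 can be a failed estimate: over all genes there were 6 zeros where the same gene reached 20 TPM or more in both other replicates of that stage.

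Symbols and positions came from GENCODE M21, and of 22032 identifiers 21902 had a symbol. Promoter windows came from RefSeq (GRCm38.p6). The deposited log2 values were fitted in R 4.3.3 by limma 3.58.1, as lmFit and eBayes with trend and stage as the only term, for the 13125 genes that averaged 1 TPM or more, with Benjamini-Hochberg adjustment and a threshold of 0.05. Fold changes are on the log2(TPM + 1) scale, which understates changes of low genes. The test was also tried on data simulated with the means and SDs of the genes tested here. EBSeq, named in the methods, needs counts and was not used. Per-sample levels, shares of the summed TPM, ratios and Pearson's r were computed in Python 3.11.15, and r and shares were not tested. The design cannot reach p under 0.05 in an exact permutation test of single values (3 against 3), so none is given. The members were fixed by name. Of each lysosomal list up to 4 called genes with the largest change were to be named, and every tested inhibitor, other cathepsin and transcription factor. The members and the lists were chosen with earlier results of these data known.

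Alternatives were a pseudocount of 0.1, no filter and a minimum mean of 5 TPM, median-of-ratios, quantile and 20-gene rescaling, other eBayes settings, a stricter threshold, the replicate number as a block and leaving out each sample. Adult replicate 2 as the only adult sample was added after the data were seen. Human, pig and in vitro samples were not analysed here, and some genes of the lists are not reported here.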

Additional observations from a re-analysis of the deposited data

How the results depend on the processing

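Ctsd, Ctsh and Ctsk stayed higher in the adult and past the threshold under all 17 alternatives, at log2 fold changes of 1.45 to 1.74, 2.60 to 2.86 and 1.64 to 2.13, and Ctsc stayed lower under the 16 in which it was tested. With a minimum mean of 5 TPM no cathepsin was lower (0), because Ctsc was no longer tested. With adult replicate 2 as the only adult sample, chosen after seeing the data, 2 cathepsins were lower, Ctsl with -0.69 beside Ctsc, and 30 other lysosomal genes were higher instead of 54, while over all genes those called higher went from 3140 to 1761. In that fit 1 adult sample is assumed to vary like the embryonic ones. At a threshold of 0.01 they numbered 34. Of the members that did not pass the test, Ctsa stayed at 0.12 to 0.48 and Ctsb at 0.14 to 0.53 under all 17 alternatives. Ctsl, Ctso and Ctsz changed sign under some of them. Ctso went to -0.0260 with median-of-ratios scaling and -0.0330 with quantile normalization, and Ctsz to 0.0629 with quantile normalization and 0.0784 when the 20 highest genes were left out of the scaling. With 1 sample left out, Ctso lay between -0.00517 and 0.207, Ctsz between -0.108 and 0.0534 and Ctsl between -0.326 and 0.0742, each highest or, for Ctso, lowest without adult replicate 2, and the cause was not tested. The scalings moved the median log2 fold change of all genes from 0.16 to between 0.03 and 0.25. The replicate numbers did not pair the samples, since deviations of same-numbered samples correlated at -0.009 to -0.022. With the replicate block 3 cathepsins were higher and 1 lower, and 50 and 6 other lysosomal genes. Having 3 samples per stage limits genes of low level, such as Ctso and Ctss, and the sequencing depth was not looked at here.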

Other observations

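Some genes of other cell types, which belong to no comparison of the cathepsins, differed between samples of a stage or between stages. Of 7 erythroid genes the summed level was 257 TPM in embryonic replicate 1 against 7.77 and 8.36 TPM in the other embryonic samples, and 12.4 to 47.5 TPM in the adult ones. Alpl, the alkaline phosphatase against which the cells of both stages were sorted, was at 15.4, 14.4 and 17.9 TPM in the embryo and rose to 38.6, 32.7 and 36.0 TPM (log2 fold change 1.13, SE 0.213, adjusted p = 0.00292). Bmpr1b, by which they were sorted, was at 20.3, 19.0 and 16.4 TPM and at 4.51, 18.5 and 13.4 TPM, with overlap. Cd14, a co-receptor of endotoxin known from monocytes, was at 1.18, 6.89 and 6.12 TPM in the embryonic samples, against adult values of 357, 458 and 364 TPM, and was highest in adult replicate 2, which had no Ptprc. Cd68, a lysosomal membrane protein that is also used as a macrophage marker, was at 4.22, 5.87 and 12.6 TPM and at 33.3, 17.2 and 27.5 TPM (log2 fold change 1.73, SE 0.419, adjusted p = 0.00967).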
